A study of Mus musculus with 8 samples.

Results

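The genes described here are 10 ubiquitin ligase genes linked to muscle atrophy, measured in the gastrocnemius (GAS) 12 weeks after *Mytho* was knocked down. They were named as a list and then looked up by gene symbol. All 10 were found, each on 1 probe set, among 22206 probe sets that name 22664 gene symbols. Male C57/Bl6j mice received an adeno-associated virus (AAV) in the GAS at about 10 weeks of age and their muscles were taken at 22 weeks. The AAV carried either a short hairpin RNA against *Mytho* (AAV sh-RNA MYTHO, here MYTHO-KD, 4 muscles) or a scramble hairpin (AAV sh-RNA scrmb, here scramble, 4 muscles), the latter going into the opposite leg. Both hairpins were driven by the U6 promoter, which is not restricted to muscle fibres, and both groups had received virus, so no untreated muscle is compared.

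Ubiquitin ligases choose the proteins to which ubiquitin is attached, and chains of ubiquitin send most of these proteins to the proteasome. In muscle, *Fbxo32* (atrogin-1) and *Trim63* (MuRF1) are the classical markers of atrophy, and transcription factors of the FoxO family switch on both during fasting, denervation and cachexia. F-box proteins are the substrate adaptors of SCF complexes, built on a cullin and a RING protein, whereas TRIM proteins carry a RING domain of their own. CBL-B and NEDD4 belong to other ligase classes, NEDD4 having a HECT domain that takes the ubiquitin over before passing it on.

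*Trim63* is shown with *Trim54* (MuRF3), its close relative, because the former had one of the lowest p-values among the ligase genes and its promoter was the only one of those searched with letters of the FoxO motif. The 250 bases before each start site are given 5′ to 3′ from RefSeq on build GRCm38.p6, plus strand, with motif matches in capitals. The window of *Trim63* is chr4:134314870-134315119 and that of *Trim54* is chr5:31116362-31116611.
Trim63: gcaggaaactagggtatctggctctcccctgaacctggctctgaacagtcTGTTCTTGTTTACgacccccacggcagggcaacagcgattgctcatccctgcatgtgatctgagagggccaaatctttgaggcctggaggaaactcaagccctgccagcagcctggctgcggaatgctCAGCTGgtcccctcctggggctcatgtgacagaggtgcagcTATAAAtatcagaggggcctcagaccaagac
Trim54: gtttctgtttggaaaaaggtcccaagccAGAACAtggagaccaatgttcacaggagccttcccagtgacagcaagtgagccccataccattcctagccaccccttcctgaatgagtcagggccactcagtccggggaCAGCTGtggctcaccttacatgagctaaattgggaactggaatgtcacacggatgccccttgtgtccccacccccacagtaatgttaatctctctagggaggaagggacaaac
Motifs searched on both strands were the FoxO core GTAAACA, the E-box CAGCTG bound by myogenic factors, the glucocorticoid receptor half-site AGAACA and the TATA box TATAAA. In *Trim63* the reverse of the half-site lay 200 bases before the start and ran directly into the reverse of the FoxO core, at 194 bases, while the E-box lay at 72 bases and the TATA box at 31 bases. In *Trim54* the half-site lay at 222 bases and the E-box at 113 bases. A promoter was at hand for 8 of the 10 genes (9 windows, 2 of them for *Nedd4*), and not for *Fbxo32* and *Trim55*. The FoxO core was found in 1 of these 8 genes, the E-box in 4, the half-site in 3 and the TATA box in 1. These counts are of genes, and *Nedd4* is in them through 1 of its 2 windows, whereas the shares that follow are of single windows. Over 32851 promoter windows of the same length, the shares were 3.17% for the FoxO core, 13% for the E-box, 16.1% for the half-site and 12.4% for the TATA box. These are matches of letters, and binding was not measured.

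Signals are averages of log2 values that the authors deposited for each group with their standard deviations (SDs), so values of single arrays are not shown. Levels of different genes cannot be set against each other on these arrays, because each probe set binds with its own strength. Differences are MYTHO-KD minus scramble on the log2 scale. They were tested with a moderated limma test computed from the averages and SDs, and p-values were adjusted for all probe sets by the Benjamini-Hochberg method. The knockdown was checked first. *D230025D16Rik*, the array's symbol for *Mytho*, averaged 7.71 in MYTHO-KD and 10.02 in scramble (SDs 0.66 and 0.37). Its log2 difference was -2.31 (standard error 0.304, adjusted p = 0.0138, limma). All 11 skeletal muscle markers were marked as expressed in both groups, at median averages of 19.64 in MYTHO-KD and 19.58 in scramble. At an unadjusted p under 0.05, *Mb* was higher by 0.93 and *Myh1* by 0.59 (adjusted p = 0.0754 and 0.230, limma). Averages of 5 of the markers were lower, none of them at that p. Averages on these arrays ended at 19.93, and near that end a difference in either direction can be hidden. Of the 11 markers, 3 (*Acta1*, *Myh4* and *Atp2a1*, named for their level) stood there in both groups with SDs of 0. The near-equal medians therefore say little on the content of muscle fibres.

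None of the 10 ligase genes passed the adjustment (lowest adjusted p = 0.183, limma), against 0.275% of all probe sets. At an unadjusted p under 0.05, *Trim55* and *Trim63* were lower in MYTHO-KD and no ligase gene was higher. These 2 of 10 genes stand beside 5.52% of all probe sets that were lower and 6.48% that were higher by the same unadjusted rule. None of the 10 was called at 2-fold with an unadjusted p under 0.05, as 1.12% of all probe sets were. Averages were lower in MYTHO-KD for 6 ligase genes and higher for 4, with a median log2 difference of -0.275 against -0.01 over all probe sets. Of the 22206 probe sets, 11412 had lower and 10416 higher averages, a split near that of the ligase genes.

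**Figure D1:**
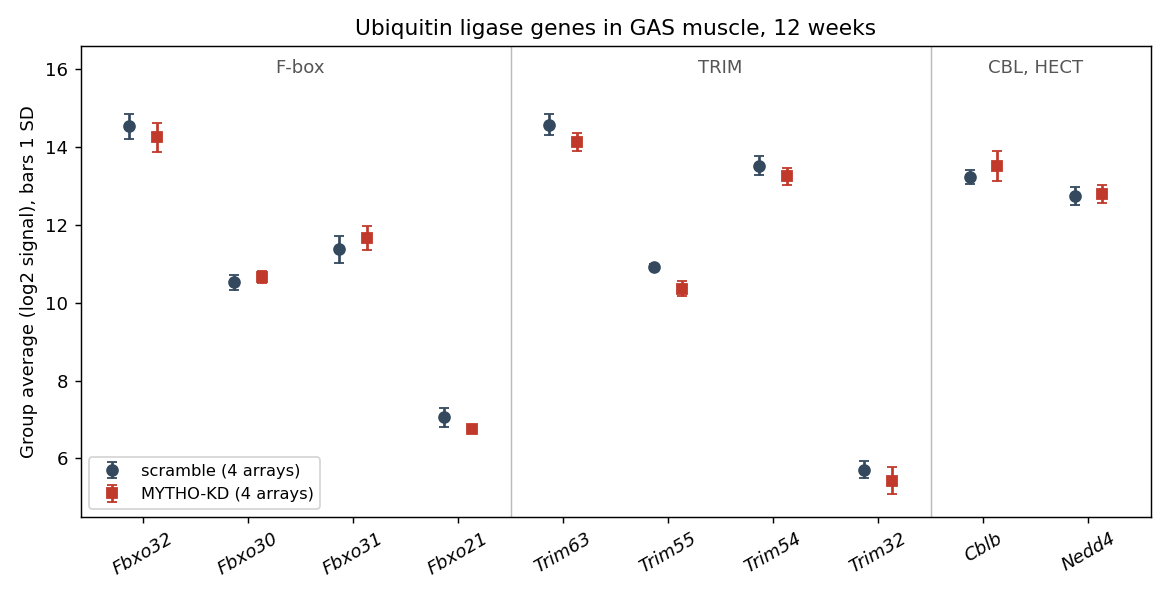
Group averages of the log2 signal (y axis) of the 10 ligase genes in scramble (circles) and MYTHO-KD (squares), with bars of 1 SD as deposited. *Trim55*, with 10.92 in scramble and 10.36 in MYTHO-KD, is the one gene whose bars do not touch.

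All 4 TRIM genes had lower averages in MYTHO-KD. *Trim55* encodes MuRF2, a ligase bound to the sarcomere and to titin. Its probe set lies on chromosome 3 from 19644460 to 19691599 (mm10). It averaged 10.36 in MYTHO-KD and 10.92 in scramble (SDs 0.20 and 0.08). The log2 difference of -0.56 had a standard error of 0.161 and an unadjusted p of 0.00456 (adjusted p = 0.183, limma). The MYTHO-KD signal was 67.8% of the scramble signal, with a 95% interval from 53.2% to 86.5%. Of all probe sets, 2.49% had an unadjusted p as low or lower.

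*Trim63* encodes MuRF1, which ubiquitinates thick filament proteins. It lies on chromosome 4 from 134315120 to 134329629, and its averages were 14.14 in MYTHO-KD and 14.58 in scramble (SDs 0.23 and 0.26). The log2 difference was -0.44 (standard error 0.188, unadjusted p = 0.0372, adjusted p = 0.381, limma), or 73.7% of the scramble signal with a 95% interval from 55.5% to 97.9%. The difference was larger than either SD but smaller than their sum. An unadjusted p this low or lower was found for 9.73% of all probe sets.

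*Trim54* encodes MuRF3, which associates with microtubules and the sarcomere. It lies on chromosome 5 from 31116612 to 31137630 and averaged 13.25 in MYTHO-KD and 13.52 in scramble (SDs 0.22 and 0.25), a log2 difference of -0.27 with a 95% interval from -0.67 to 0.13 (adjusted p = 0.618, limma). *Trim32*, mutated in a form of limb-girdle muscular dystrophy, lies on chromosome 4 from 65604986 to 65616240 and averaged 5.43 and 5.71, with SDs of 0.35 and 0.21 (log2 difference -0.28, interval from -0.72 to 0.16, adjusted p = 0.645, limma). Its signal lay below 5.715, the level under which 30% of probe sets fell, so a decrease there could be understated. The 3 MuRF genes are alike in sequence, and whether their probes bind each other's transcripts was not tested.

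The F-box genes did not share a direction, with 2 averages higher and 2 lower. *Fbxo32*, on chromosome 15 from 58175879 to 58214892, averaged 14.25 in MYTHO-KD and 14.54 in scramble (SDs 0.37 and 0.32). Its log2 difference of -0.29 (standard error 0.224, adjusted p = 0.671, limma) was smaller than either SD, and its 95% interval ran from 58.3% to 115% of the scramble signal. This interval holds both no difference and a fall like that estimated for *Trim63*. Whether these classical markers of atrophy differed from each other in their response was not tested, since that needs single arrays.

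*Fbxo21* encodes SMART, an F-box protein needed for full muscle loss after denervation. It lies on chromosome 5 from 117976733 to 118010193 and averaged 6.76 in MYTHO-KD and 7.05 in scramble (SDs 0.10 and 0.25). Its log2 difference was -0.29 (interval from -0.66 to 0.08, adjusted p = 0.550, limma). *Fbxo30* encodes MUSA1, which is held down by BMP signalling and rises when that signalling is lost. It lies on chromosome 10 from 11281330 to 11298052 and averaged 10.66 and 10.52, with SDs of 0.16 and 0.20, a log2 difference of 0.14 with an interval from -0.23 to 0.51 (adjusted p = 0.813, limma). *Fbxo31*, whose protein is reported to degrade cyclin D1, lies on chromosome 8 from 121549440 to 121578806 and averaged 11.66 and 11.37, with SDs of 0.31 and 0.35 (log2 difference 0.29, interval from -0.19 to 0.77, adjusted p = 0.661, limma). None of these differences could be told from 0 with 4 arrays per group.

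CBL-B and NEDD4 act on signalling proteins, among them IRS1 for CBL-B, as described in unloaded muscle. *Cblb*, on chromosome 16 from 52031549 to 52208047, averaged 13.51 in MYTHO-KD and 13.23 in scramble (SDs 0.38 and 0.18). Its log2 difference was 0.28 (interval from -0.17 to 0.73, adjusted p = 0.652, limma). *Nedd4*, on chromosome 9 from 72662346 to 72749852, averaged 12.79 and 12.74, with an SD of 0.23 in each group, a log2 difference of 0.05 with an interval from -0.35 to 0.45 (adjusted p = 0.956, limma), the smallest difference of the 10.

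**Figure D2:**
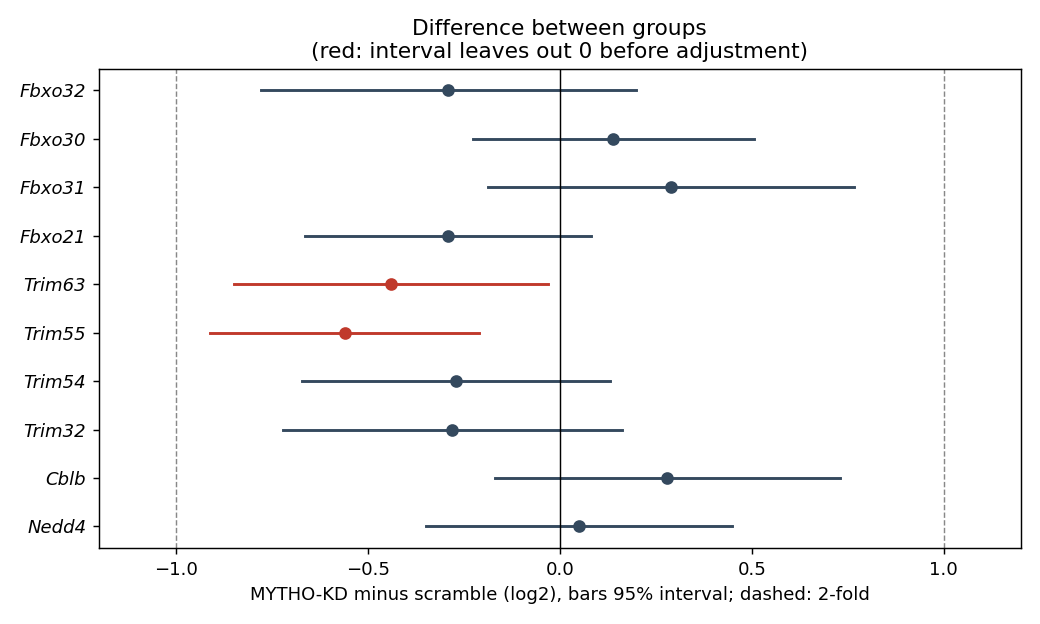
Log2 difference between MYTHO-KD and scramble (x axis, points) for each ligase gene, with unadjusted 95% intervals as bars and 2-fold marked by dashed lines. Intervals of *Trim55* and *Trim63* leave out 0, and all 10 lie inside 2-fold, between -0.91 and 0.77.

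The 95% interval of every ligase gene lay within a 2-fold change in either direction, reaching from -0.91 at *Trim55* to 0.77 at *Fbxo31*. This was also so for 89.2% of all probe sets. Spread between arrays was like that of the array as a whole, with a median SD over the 10 genes of 0.23 in MYTHO-KD and 0.24 in scramble, against 0.27 in both groups over all probe sets. All 10 genes were marked as expressed in both groups.

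**Figure D3:**
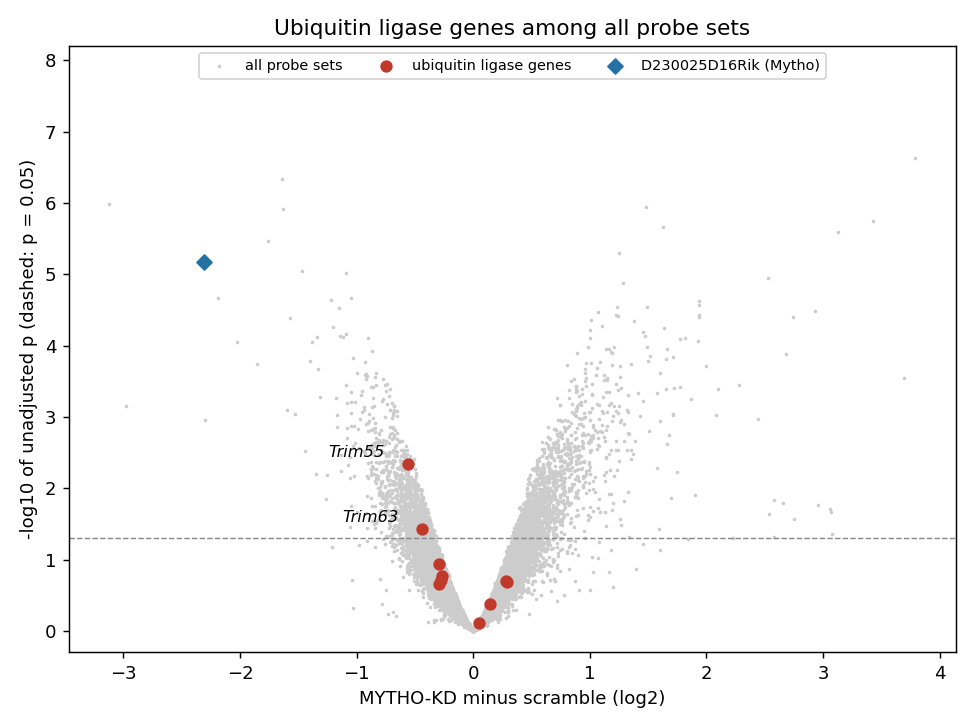
Log2 difference (x axis) against -log10 of the unadjusted p (y axis) for all 22206 probe sets (grey), the 10 ligase genes (red) and *D230025D16Rik* (blue diamond, log2 difference -2.31). *Trim55* and *Trim63* lie above the dashed line at an unadjusted p of 0.05, and the other ligase genes lie below it.

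As these are whole muscles, fewer cells of a type and less RNA per cell cannot be told apart. Markers of several other cell types had higher averages in MYTHO-KD. For comparison, 46.9% of all probe sets had higher averages, and 6.48% were higher at an unadjusted p under 0.05. Of 10 macrophage markers, 9 had higher averages and 6 an unadjusted p under 0.05, and the median average was 7.685 in MYTHO-KD and 6.805 in scramble. *Cd68* rose by 2.53 and *Lyz2* by 1.94 on the log2 scale (adjusted p = 0.0182 and 0.0277, limma). All 8 fibroblast markers were higher, 4 of them at an unadjusted p under 0.05, and *Bgn* (1.94) and *Lum* (1.49) passed the adjustment (adjusted p = 0.0290 and 0.0443, limma). All 5 endothelial markers were higher, with 2 at an unadjusted p under 0.05. Of 5 markers of regenerating fibres, *Myh8* stood at the end of the scale in both groups, at 19.93 with SDs of 0, and could show no difference. Whether its probes also bind transcripts of other myosin genes was not tested, so this level may not be that of *Myh8* alone. The other 4 markers of regenerating fibres had higher averages. Of these, *Tmem8c* (myomaker, log2 difference 1.77) and *Myh3* (embryonic myosin, 1.27) had an unadjusted p under 0.05, which *Myh3* lost under 3 of 7 other settings (p up to 0.143, limma). All 4 adipocyte and 3 of 4 Schwann cell markers had lower averages, none with an unadjusted p under 0.05. The part of these cells in the ligase values was not tested.

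The machinery that the ligases work with was read from lists of genes chosen by role. Among 9 genes of the SCF core and of neddylation, which activates cullins, the median log2 difference was 0.10, and *Ube2m*, the conjugating enzyme for NEDD8, was higher at an unadjusted p under 0.05 (log2 difference 0.55, adjusted p = 0.179, limma). *Skp1a* (-0.32), *Cul1* (-0.34) and *Rbx1* (-0.08), named for forming the SCF scaffold, had adjusted p-values from 0.430 to 0.898 (limma). None of 16 ubiquitin-activating and ubiquitin-conjugating enzymes had an unadjusted p under 0.05, nor either of the 2 probe sets of *Ubb* and *Rps27a*, which encode ubiquitin. Across the 124 probe sets of all 8 such lists, 20 had an unadjusted p under 0.05, beside 12% of all probe sets, and none passed the adjustment.

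Of 25 other ligase genes with a role in muscle, 16 had higher averages, and 3 had an unadjusted p under 0.05. Those 3 are 12% of the list, and 12% of all probe sets had such a p. *Fbxo40*, a muscle F-box gene whose protein degrades IRS1, was lower (log2 difference -0.49, adjusted p = 0.303, limma). *Mdm2*, the ligase of p53, was lower as well (-0.47, adjusted p = 0.322). *Klhl41*, a cullin adaptor of the sarcomere mutated in nemaline myopathy, was higher (0.44, adjusted p = 0.289). Of 14 deubiquitinases, which remove ubiquitin, *Uchl1* averaged 6.51 in MYTHO-KD and 5.51 in scramble (log2 difference 1.00, adjusted p = 0.204, limma), with an SD of 0.72 in MYTHO-KD and 0.21 in scramble. *Uchl3* was higher (0.40) and *Usp7* lower (-0.44), with adjusted p-values of 0.344 and 0.383 (limma).

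The ligase families were also read as a whole by gene symbol, a choice made after the values above were known. Of 62 probe sets of other TRIM genes, 36 had lower and 26 higher averages, with a median log2 difference of -0.04, and 4.84% had an unadjusted p under 0.05. Of 75 other F-box genes, *Fbxo40* among them, 45 had lower and 30 higher averages, with a median of -0.05, and 12% had an unadjusted p under 0.05, as did 12% of all probe sets. The 4 TRIM genes described above had a median of -0.36. Median averages in MYTHO-KD and scramble were 6.65 and 6.45 for the other TRIM probe sets, and 11.805 and 12.22 for these 4. With dim probe sets left out, the median was -0.04 for the others and -0.44 for the genes described above, without *Trim32*. Whether the gap in signal bears on these medians was not tested.

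**Figure D4:**
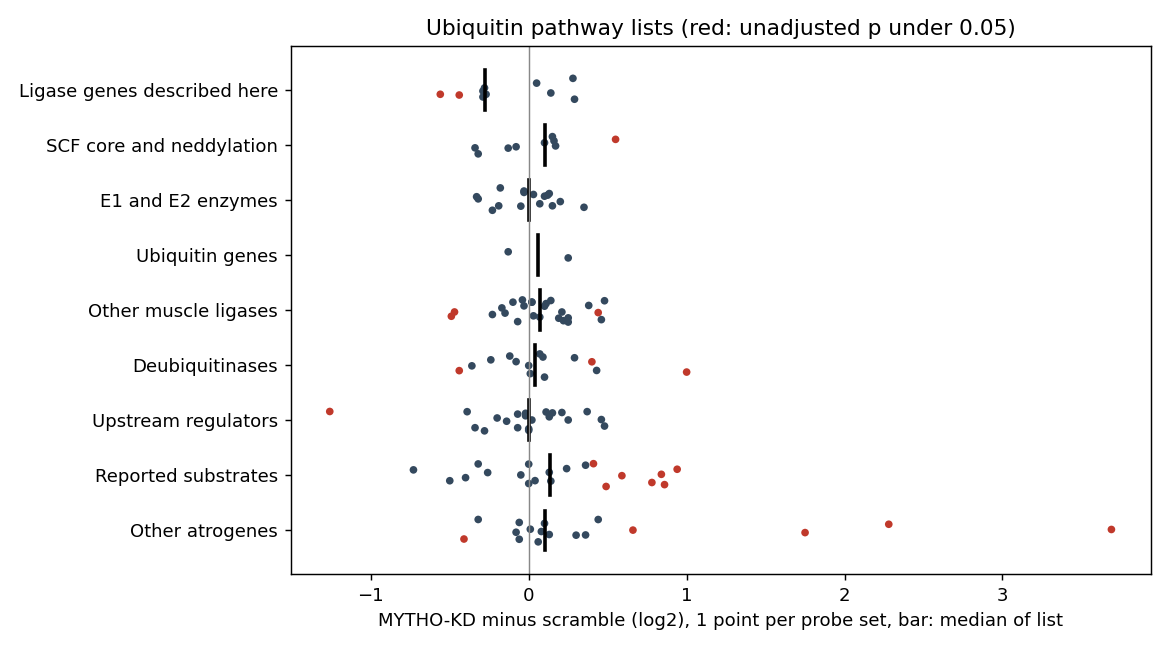
Log2 difference (x axis) of each probe set in the ligase genes and in 8 lists of related genes (rows), with the median of a list as a black bar and an unadjusted p under 0.05 in red. The ligase genes have a median of -0.275, and the medians of the lists lie from 0 to 0.135 (reported substrates).

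Among 21 regulators known to act upstream of *Fbxo32* and *Trim63*, the median log2 difference was 0.00. *Mstn*, which encodes myostatin, a secreted inhibitor of muscle growth, was the one with an unadjusted p under 0.05. It averaged 12.45 in MYTHO-KD and 13.71 in scramble (SDs 1.10 and 0.39). The log2 difference was -1.26 (adjusted p = 0.275, limma), and its unadjusted p was 0.0742 without moderation and 0.102 with unequal variances. The FoxO genes were named for their role. Their log2 differences were 0.46 for *Foxo1*, -0.14 for *Foxo3*, -0.28 for *Foxo4* and 0.13 for *Foxo6* (adjusted p from 0.535 to 0.870, limma). *Klf15* (-0.39) and the glucocorticoid receptor gene *Nr3c1* (-0.20), also named for their role, had adjusted p-values of 0.666 and 0.840 (limma). These are transcript values, and FoxO activity, which depends on phosphorylation and location, was not measured.

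Transcripts of proteins reported as substrates of these ligases had 7 of 20 at an unadjusted p under 0.05, and those 7 were higher. Of all probe sets, 6.48% were higher by the same unadjusted rule. By averages alone, 12 of the 20 were higher, 6 lower and 2 equal. Named for their direction, the 6 lower ones were *Myh7* (-0.73), *Mybpc2* (-0.50), *Myod1* (-0.40), *Myl2* (-0.32), *Fgfr1* (-0.26) and *Ckm* (-0.05). Their adjusted p-values ran from 0.476 to 0.951 (limma). Thick filament genes were thus found in both directions. Among the 7, *Ccnd1*, named because its p depended on the setting, lost this under 2 of 7 other settings (p up to 0.0529, limma). *Dtnbp1*, which encodes dysbindin, a substrate of TRIM32, averaged 7.74 in MYTHO-KD and 6.88 in scramble (SDs 0.15 and 0.22). The log2 difference was 0.86 (adjusted p = 0.0672, limma). *Vim* (vimentin) had the largest difference, 0.94 (adjusted p = 0.208, limma). It is also made by fibroblasts and macrophages, whose markers were higher, and the part of these cells in its value was not tested. Named for its role, *Eif3f*, a translation initiation factor bound by atrogin-1, was higher by 0.78 (adjusted p = 0.224, limma). The thick filament gene *Mybpc1*, also named for its role as a MuRF1 substrate, was higher by 0.84 (adjusted p = 0.179, limma). *Myh4* and *Myl1*, named for their level, stood at the end of the scale in both groups, at 19.93 with SDs of 0, so that no difference could be read from them.

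Of 17 other atrophy-related genes, 12 had higher averages and 5 an unadjusted p under 0.05, and none passed the adjustment. Over all probe sets, 46.9% had higher averages and 12% an unadjusted p under 0.05. The metallothionein genes *Mt2* (log2 difference 3.69, adjusted p = 0.0670) and *Mt1* (2.28, adjusted p = 0.0742) had the largest differences in limma's test, with SDs in MYTHO-KD of 1.80 and 1.16. *Cdkn1a*, the cell cycle inhibitor p21, named after its value was seen, was higher by 1.75 (adjusted p = 0.200, limma), as was *Ctsl*, the lysosomal protease cathepsin L, named likewise, by 0.66 (adjusted p = 0.344). *Map1lc3b*, which encodes the autophagosome protein LC3B, had a log2 difference of -0.41 (adjusted p = 0.414, limma).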

How the data were processed

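Total RNA of 8 GAS muscles was hybridized to Clariom S Mouse arrays. Per the paper's methods, the authors analysed the arrays with default parameters in the Transcriptome Analysis Console (SST-RMA), while the submitters' processing notes name RMA and the Affymetrix Expression Console. The deposited table gives, for each probe set, a log2 average, an SD and an expression flag per group (annotation mm10), written with a decimal comma. It also holds the authors' fold changes, p-values and false discovery rates, which were not used. The kind of average is not stated, and if it is not a plain mean, the p-values here are approximate.

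The legs were compared as unpaired groups. Group variances were pooled, leaving 6 degrees of freedom, and passed to squeezeVar of limma 3.58.1 in R 4.3.3 (prior SD 0.284, prior degrees of freedom 5.85). Two-sided p-values went through Benjamini-Hochberg adjustment across 22206 probe sets, and 95% intervals are unadjusted. In 21 probe sets an SD was 0, none of them a ligase gene. The code was tested on simulated arrays. For a symbol on more than 1 probe set, the brightest by mean of both averages stood for it. Symbols matched under older names were *Park2*, *Skp1a* and *Tmem8c*. Some genes of the lists are not reported here, and the counts leave them out.

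The ligase genes, the other lists and the tests were chosen with earlier results of these data known. Named are the ligase genes, the targeted gene and, of each list, at most 2 rises and 2 falls by size at an unadjusted p under 0.05, with other names marked where they stand. Alternatives were other variance models, filters, 1 probe set per symbol, centring and a 1.5-fold threshold. By the paper's methods a mouse has 1 GAS of each group, so that 4 muscles of a group would come from 4 mice. The labels name no mice, so neither this nor which legs share a mouse can be read from them. The p-values set each difference against the spread between these samples, a spread between mice only if that scheme held, and leave out the pairing of legs. Arrays have no sequencing depth, and 4 per group limit the precision.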

Additional observations from a re-analysis of the deposited data

How the results depend on the processing

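No paired analysis was possible because the table analysed holds group averages, and for the same reason no array was left out in turn; both alternatives were not run. Under the 7 alternatives in variance model, filter, probe set choice and centring, the 69 values of the ligase genes kept their direction and none passed the adjustment. *Trim32* was lost to the filter on dim probe sets. *Trim55* and *Trim63* had an unadjusted p under 0.05 in all 7, with adjusted p from 0.138 to 0.429 for *Trim55* and from 0.279 to 0.548 for *Trim63* (limma), and the other ligase genes in none. The difference of *D230025D16Rik* was -2.31 without moderation and with unequal variances, where its adjusted p was 0.173 and 0.363. *Cd68*, *Lyz2*, *Bgn* and *Lum* also lost their adjusted call in these settings. With unequal variances, *Uchl1* and *Cdkn1a* lost an unadjusted p under 0.05. There and without moderation, so did *Mstn*, *Ctsl*, *Map1lc3b* and *Myh3*. Centring also took it from *Map1lc3b*, and a trend from *Myh3*. In these losses p ran from 0.0538 to 0.143 (limma). Without moderation and with unequal variances, it was also lost by the macrophage markers *C1qc*, *Cd163* and *Csf1r*. The fibroblast marker *Fbn1*, the endothelial marker *Eng* and the substrate transcript *Ccnd1* lost it in both settings too (p up to 0.120, limma).

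With 61 probe sets at an adjusted p under 0.05 (40 higher, 21 lower), no moderation left 2 (0 higher, 2 lower; 0 ligase genes), unequal variances left 2 (0 higher, 2 lower), and a trend with robust fitting gave 189 (115 higher, 74 lower). A 1.5-fold threshold in place of 2-fold, at an unadjusted p under 0.05, gave 1287 calls (787 higher, 500 lower) against 248 (191 higher, 57 lower). The cause of these shifts was not tested, other than the wider limit of the last. With a trend, *Dtnbp1* passed the adjustment (adjusted p = 0.0482, limma), as did *Mb*, *C1qb*, *Col3a1* and *Tmem8c*.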
